A study of Mus musculus with 4 samples.

Results

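The genes described here encode the machinery that licenses and copies DNA: 47 genes chosen by name, from the origin recognition complex to the helicase, the polymerases, the sliding clamp, nucleotide supply, histone deposition and cyclin E. All 47 were found among the 22619 genes listed in the deposited tables, and 46 of them passed the filter on low counts. The gene left out of the test was Fen1, which had at most 10 reads in any library. RNA came from E16.5 brain cortex (embryonic stage) of C57BL/6 mice, either H2A.Z.2 conditional knockout (called cKO, replicates 1 and 2) or wild type (WT, replicates 1 and 4), with 1 library per replicate. H2A.Z.2 is a histone variant of the H2A family encoded by H2afv. The Cre driver, the deleted exons, the sex of the embryos and any pooling are not given in the sources used here, nor is it stated that replicates are separate embryos. The p-values therefore measure only the spread between these libraries, which may be technical.

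Each origin of replication is licensed in G1, when the origin recognition complex, CDC6 and CDT1 load the MCM2-7 helicase onto DNA. Geminin then blocks reloading, while CDC45 and the GINS complex turn the loaded helicase into the moving fork on which polymerases alpha, delta and epsilon act. In the embryonic cortex, cells in S phase are mainly radial glia and intermediate progenitors near the ventricle, and the neurons they produce no longer replicate their DNA. In a bulk sample, fewer cycling cells and less RNA per cycling cell cannot be told apart.

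Library totals ran from 16625181 to 17940659 reads on genes, of which the 47 genes took 0.165% to 0.285%. Levels are given as CPM, read counts scaled to a common library size by the library's total and TMM factor, unless stated otherwise. H2afv, the targeted gene, was at 128 and 127 CPM in cKO replicates 1 and 2, against 136 and 222 CPM in WT replicates 1 and 4 (log2 fold change -0.49, SE 0.23, edgeR adjusted p = 0.956). The count sums all exons, deleted or not, and cKO replicates 1 and 2 lay close to WT replicate 1. The labels were therefore not checked by this gene, and cKO is used below as the label only. WT replicate 4 stood apart from the other libraries: it was placed at 55.6 on the first principal component (63.1% of the variance), the others between -27.0 and -10.1. Reads on Gm23935, CT010467.1 and Lars2, genes at which ribosomal RNA reads collect, made up 0.383% of WT replicate 4 and 0.0346% to 0.0480% of the other libraries. Its part in the results below was not tested.

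As a set the replication genes were lower in cKO than in the mean of the WT libraries, and nearly all of that difference lay in WT replicate 4. Of the 46 genes tested, 44 had a log2 fold change (cKO over WT) below 0, against 51.9% of all 16269 genes tested. Their median log2 fold change was -0.44, against a median of -0.013 over all genes. None of the 46 passed 5% FDR (edgeR quasi-likelihood test, Benjamini-Hochberg adjustment, percent of all genes called 0), with adjusted p from 0.956 to 0.983. At an unadjusted p below 0.05, 3 of 46 were lower in cKO, against 0.996% of all genes in that direction, and DESeq2 had 11 of 46 at that level, against 2.32% of all genes in either direction, with 0 past 5% FDR. The smallest two-sided p that an exact permutation of 2 libraries against 2 can give is 0.333.

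Level by level, the summed expression of the 47 genes was 1820.5 and 1684 CPM in cKO replicates 1 and 2, against 1814 and 2803 CPM in WT replicates 1 and 4. WT replicate 4 was thus far above the other 3 libraries, and cKO replicate 1 was level with WT replicate 1. WT replicate 4 was the highest library for 44 of the 46 genes, against 37.6% of all genes. The log2 ratio of WT replicate 4 over WT replicate 1 ran from -0.0099 to 1.23 with a median of 0.64, and it was above 1 for 9 genes, against 4.54% of all genes. Set against WT replicate 1 alone, cKO replicate 1 had a median log2 difference of 0.010 and cKO replicate 2 one of -0.14. cKO replicate 1 lay below WT replicate 1 in 22 of 46 genes, against 50.5% of all genes, and cKO replicate 2 in 37 of 46, against 50.1%. cKO replicate 2 was the lowest of the 4 libraries for 31 of 46 genes, against 24.4% of all genes.

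Without WT replicate 4, the median log2 fold change of the 46 genes was -0.043, with 35 of 46 below 0 against 49.7% of all genes, and the fitted values ran from -0.34 to 0.22. Without WT replicate 1 the median was -0.65 over 47 genes and 27 of them passed 5% FDR as lower in cKO, against 5.59% of all genes. Those 27 fits rest on a lone WT library, which is assumed to vary like the cKO libraries. Both cKO libraries lay below both WT libraries for 19 of 46 genes, against 15.7% of all genes, and above both for 1, against 16%.

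**Figure D1:**
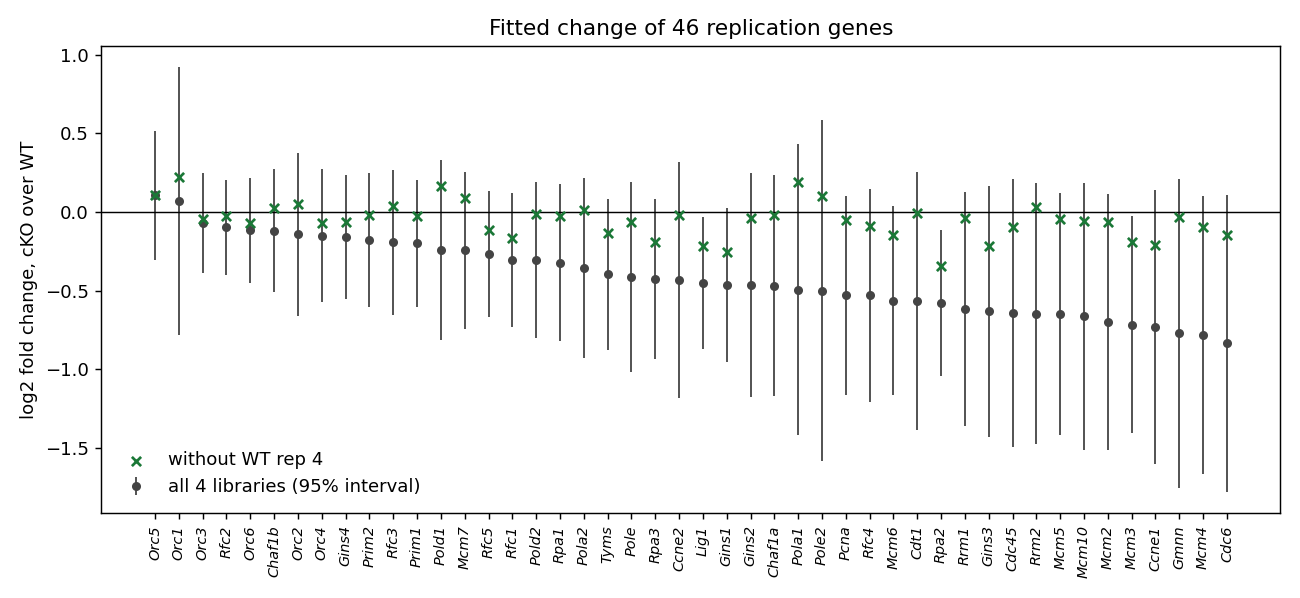
Fitted log2 fold change (cKO over WT) of each of the 46 replication genes tested, with its 95% interval from 4 libraries (grey points and bars) and the value refitted without WT replicate 4 (green crosses). The grey points run from -0.83 to 0.11, and the intervals of 43 genes span 0, while the crosses lie between -0.34 and 0.22.

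The origin recognition complex, the platform on which licensing starts, differed least between libraries. Of its 6 genes, 4 had a log2 fold change below 0, and the values ran from -0.15 to 0.11. The log2 ratio of WT replicate 4 over WT replicate 1 had a median of 0.11 for these genes, against 0.64 for all 46. Orc5 was at 22.9 and 25.3 CPM in cKO replicates 1 and 2, against 22.5 and 22.3 CPM in WT replicates 1 and 4, the one gene with both cKO libraries above both WT libraries (log2 fold change 0.11, SE 0.17). Orc1, the subunit whose supply changes over the cell cycle, was at 3.13 and 2.51 CPM in cKO replicates 1 and 2, against 2.42 and 2.96 CPM in WT replicates 1 and 4, and the groups overlapped. Orc1 was also the scarcest subunit per length, at 0.792 CPM per kilobase of exon, whereas Orc6 stood at 20.7. Orc6, which joins the complex at its edge, was at 47.3 and 50.8 CPM in cKO replicates 1 and 2, against 51.7 and 54.7 CPM in WT replicates 1 and 4. Orc3 had 53.9 and 53.96 CPM in the cKO libraries, against 55.8 and 57.4 CPM in the WT libraries, so that its 4 libraries lay within a narrow band and cKO was the lower group (log2 fold change -0.070, SE 0.13). Orc2 and Orc4 had log2 fold changes of -0.14 and -0.15, and the sign turned for Orc2 without WT replicate 4 and for Orc4 without cKO replicate 1. Orc2 shares 29.8% of its exon bases with Nif3l1 on the opposite strand.

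The loading factors and their inhibitor showed the widest gap between WT replicate 4 and the rest. Cdc6, the ATPase that brings the helicase to the origin complex, was at 7.89 and 7.700 CPM in cKO replicates 1 and 2, against 8.65 and 19.2 CPM in WT replicates 1 and 4. This was the lowest log2 fold change of the 46 genes (-0.83, SE 0.39, 95% interval -1.78 to 0.11, edgeR adjusted p = 0.956), and it was -0.15 without WT replicate 4. Cdt1, the partner of CDC6 in loading, was at 23.7 and 17.03 CPM in cKO replicates 1 and 2, against 20.5 and 39.8 CPM in WT replicates 1 and 4. Here the groups overlapped, since cKO replicate 1 was above WT replicate 1. Gmnn encodes geminin, which binds CDT1 and stops origins from being licensed again, and was at 10.7 and 8.87 CPM in cKO replicates 1 and 2, against 10.04 and 23.5 CPM in WT replicates 1 and 4 (log2 fold change -0.77, SE 0.41). Without WT replicate 4 the values of Cdt1 and Gmnn were -0.0081 and -0.029. The ratio of Cdt1 to Gmnn, in CPM, was 2.203 and 1.92 in cKO replicates 1 and 2, against 2.05 and 1.695 in WT replicates 1 and 4. The ratio of the licensing factor to its inhibitor was thus lowest in WT replicate 4 and next lowest in cKO replicate 2, and the groups overlapped. The ratio of Cdc6 to Orc1 was 2.52 and 3.07 in cKO replicates 1 and 2, against 3.57 and 6.48 in WT replicates 1 and 4, though Orc1 had only 42 to 56 reads a library.

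The MCM2-7 genes, whose products form the ring-shaped helicase that opens the DNA, were lower in cKO in 6 of 6 cases, with log2 fold changes from -0.78 to -0.24 and a median of -0.67. Their median without WT replicate 4 was -0.080. Their summed level was 454 and 397 CPM in cKO replicates 1 and 2, against 435 and 773 CPM in WT replicates 1 and 4. Mcm3 (ENSMUSG00000041859, chr1:20802968-20820312, minus strand) had 47.1 and 44.3 CPM in cKO replicates 1 and 2, against 52.3 and 97.8 CPM in WT replicates 1 and 4. Both cKO libraries were below both WT libraries, with means of 45.7 ± 1.99 CPM in cKO and 75.05 ± 32.1 CPM in WT (SD, n = 2 each), a log2 fold change of -0.72 (SE 0.29, 95% interval -1.41 to -0.025) and an unadjusted p of 0.0443 (edgeR adjusted p = 0.956). Mcm6 was the other helicase gene whose groups did not overlap, at 64.4 and 54.8 CPM in cKO replicates 1 and 2, against 66.2 and 110.01 CPM in WT replicates 1 and 4 (log2 fold change -0.56, SE 0.25).

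Mcm4 had the lowest fold change of the helicase genes (-0.78, SE 0.37), at 31.8 and 24.97 CPM in cKO replicates 1 and 2, against 30.5 and 67.3 CPM in WT replicates 1 and 4. Mcm2, a target of the kinase that fires origins, was at 58.3 and 47.3 CPM in cKO replicates 1 and 2, against 55.4 and 116 CPM in WT replicates 1 and 4. Mcm5, its neighbour across the gate of the ring, was at 66.1 and 56.3 CPM in cKO replicates 1 and 2, against 63.3 and 128 CPM in WT replicates 1 and 4. In each of these genes cKO replicate 1 lay slightly above WT replicate 1, cKO replicate 2 below it, and WT replicate 4 above all. Mcm7 was the most abundant of the helicase genes per length, at 43.8 CPM per kilobase of exon, whereas Mcm5, the next, had 19.7. Its level was 186 and 169 CPM in cKO replicates 1 and 2, against 168 and 253 CPM in WT replicates 1 and 4, and both cKO libraries were above WT replicate 1 (log2 fold change -0.24, SE 0.21, and 0.089 without WT replicate 4). Its share of the summed helicase level per length was 41.1% and 42.7% in cKO replicates 1 and 2, against 38.5% and 32.8% in WT replicates 1 and 4, so the WT libraries held the lower shares and replicate 4 the lowest. Mcm7 also carries the microRNA genes Mir25 and Mir93 and shares 7.25% of its exon bases with Ap4m1 on the opposite strand.

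**Figure D2:**
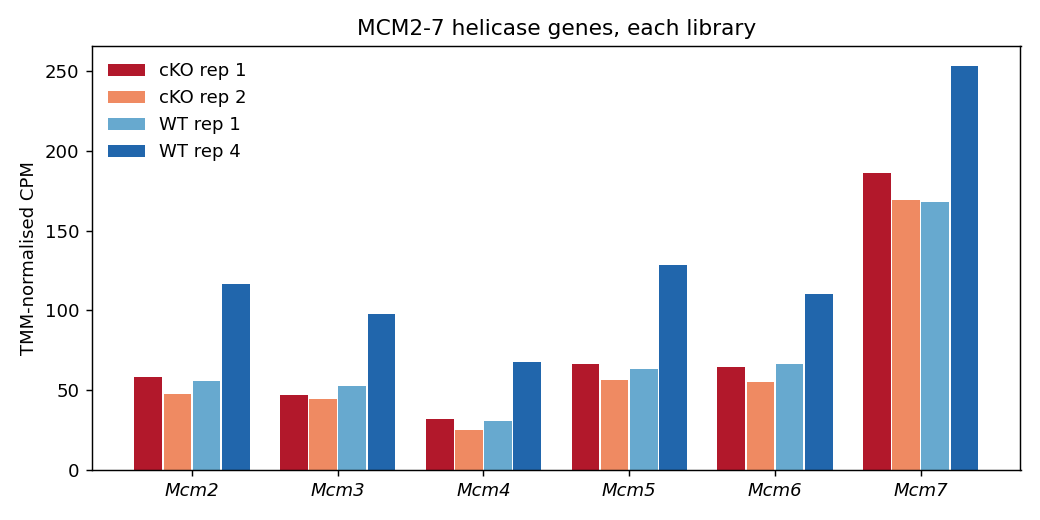
Bars give the TMM-normalised CPM of Mcm2 to Mcm7 in each library, cKO replicates in red tones and WT replicates in blue, 1 bar per library with no error bar. WT replicate 4 is the highest bar for 6 of 6 genes, and the other 3 libraries lie close together.

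Many replication genes are known to be driven by E2F factors, which are released from pocket proteins such as RB as cells enter S phase. Promoter windows, from 250 bases before to 50 after the RefSeq start (GRCm38.p6), were at hand for 38 of the 47 genes. Those with no entry were Ccne2, Gins1, Gins2, Gins4, Gmnn, Mcm4, Pole, Prim2 and Rfc2. The letters TTTCCCGC, TTTGGCGC, TTTCGCGC or TTTGCCGC, searched on both strands with overlapping matches kept, stood in a window of 14 of the 38 genes (36.8%). They stood in 4.48% of the genes tested that have a window; the median base composition was close (61.3% of the letters were G or C in windows of the replication genes, against 60.7% in those of the genes tested). Of all genes with a window, tested or not, 2.6% held them. The letters CCAAT stood in 63.2% of the 38 genes and 42.5% of the genes tested, and TTTGAA, the core letters of an element known from G2 and M phase promoters, in 13.2% and 14.1%.

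The windows below were chosen to show helicase and loading genes with a match, a flat gene with a match and a gene with none that differed as much between the WT libraries. Capitals mark the E2F-type letters on either strand. Each window is read along the strand of its gene: Mcm3 at chr1:20820263-20820562, minus strand; Mcm5 at chr8:75109259-75109558, plus strand; Mcm6 at chr1:128359656-128359955, minus strand. The others are Cdc6 at chr11:98907901-98908200, plus strand; Orc3 at chr4:34614893-34615192, minus strand; Rrm2 at chr12:24708004-24708303, plus strand.
Mcm3: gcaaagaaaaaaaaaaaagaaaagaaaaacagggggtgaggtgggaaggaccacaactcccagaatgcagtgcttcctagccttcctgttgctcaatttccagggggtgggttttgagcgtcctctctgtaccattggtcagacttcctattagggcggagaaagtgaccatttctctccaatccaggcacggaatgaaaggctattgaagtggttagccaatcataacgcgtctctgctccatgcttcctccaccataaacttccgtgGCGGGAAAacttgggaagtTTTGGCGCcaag
Mcm5: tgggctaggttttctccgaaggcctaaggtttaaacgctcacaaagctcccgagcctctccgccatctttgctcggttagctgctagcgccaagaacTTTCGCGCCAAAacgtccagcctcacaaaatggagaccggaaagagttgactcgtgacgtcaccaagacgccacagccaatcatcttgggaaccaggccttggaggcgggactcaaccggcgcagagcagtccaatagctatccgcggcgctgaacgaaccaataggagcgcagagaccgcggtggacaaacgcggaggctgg
Mcm6: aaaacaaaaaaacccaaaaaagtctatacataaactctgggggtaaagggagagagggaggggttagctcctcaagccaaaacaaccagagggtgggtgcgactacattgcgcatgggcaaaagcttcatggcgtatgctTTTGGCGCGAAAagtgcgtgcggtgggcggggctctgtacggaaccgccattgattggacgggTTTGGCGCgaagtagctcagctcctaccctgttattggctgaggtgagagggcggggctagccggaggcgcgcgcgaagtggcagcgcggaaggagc
Cdc6: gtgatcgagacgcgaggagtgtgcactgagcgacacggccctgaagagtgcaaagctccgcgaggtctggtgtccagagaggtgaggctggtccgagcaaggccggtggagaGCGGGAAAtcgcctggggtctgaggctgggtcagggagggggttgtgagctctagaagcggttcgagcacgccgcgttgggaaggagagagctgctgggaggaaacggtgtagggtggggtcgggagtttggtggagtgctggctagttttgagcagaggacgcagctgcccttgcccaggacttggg
Orc3: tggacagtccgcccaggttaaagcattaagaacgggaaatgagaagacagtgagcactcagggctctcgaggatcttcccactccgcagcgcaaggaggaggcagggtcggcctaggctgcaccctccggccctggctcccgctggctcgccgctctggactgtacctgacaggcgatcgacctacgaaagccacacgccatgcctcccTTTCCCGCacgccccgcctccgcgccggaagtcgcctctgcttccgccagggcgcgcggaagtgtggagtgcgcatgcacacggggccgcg
Rrm2: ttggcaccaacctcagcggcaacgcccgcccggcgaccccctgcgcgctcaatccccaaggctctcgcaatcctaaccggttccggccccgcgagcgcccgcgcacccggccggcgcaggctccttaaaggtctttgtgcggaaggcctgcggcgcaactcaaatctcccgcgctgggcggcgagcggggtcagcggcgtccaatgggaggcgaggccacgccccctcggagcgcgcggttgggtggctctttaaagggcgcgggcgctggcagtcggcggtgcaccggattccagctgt
The Mcm5 and Mcm6 windows each hold a pair of overlapping matches on opposite strands, read as TTTCGCGCCAAA in Mcm5 and TTTGGCGCGAAA in Mcm6. Orc3 and Rrm2 were picked as a contrast and do not stand for the other genes. Orc3, with TTTCCCGC, had a log2 ratio of WT replicate 4 over WT replicate 1 of 0.041, and Rrm2, with none, had 1.13. Over the 37 tested genes with a window, that ratio had a median of 0.73 and a range of 0.041 to 1.15 in the 14 genes with a match. It had a median of 0.53 and a range of -0.0099 to 1.13 in the 23 without. The fitted fold change (cKO over WT) had medians of -0.50 and -0.40 in the same order. These are descriptions of letters in windows, and no binding was measured.

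The factors that turn a loaded helicase into a fork were lower in cKO in 6 of 6 cases, with a median log2 fold change of -0.55, and -0.078 without WT replicate 4. Mcm10, which helps to start the fork, was at 11.9 and 10.6 CPM in cKO replicates 1 and 2, against 11.7 and 23.8 CPM in WT replicates 1 and 4. Cdc45, the helicase cofactor, was at 17.8 and 12.2 CPM in cKO replicates 1 and 2, against 16.04 and 30.7 CPM in WT replicates 1 and 4 (log2 fold change -0.64, SE 0.35). cKO replicate 1 was above WT replicate 1 in both genes and cKO replicate 2 was the lowest library. Gins1, a GINS subunit, had 17.1 and 17.4 CPM in cKO replicates 1 and 2, against 20.7 and 26.9 CPM in WT replicates 1 and 4. It was one of the genes that kept a lower value without WT replicate 4 (-0.26), and its groups did not overlap. Gins2 had 11.8 and 10.5 CPM in the cKO libraries, against 11.5 and 19.3 CPM in the WT libraries, and 67.3% of its exon bases are shared with Gse1 on the opposite strand. Gins3 and Gins4 had log2 fold changes of -0.63 and -0.16, both with the cKO libraries below the WT libraries. Per length Gins4 was at 21.3 and Gins3 at 2.82 CPM per kilobase of exon, although the 4 subunits assemble in equal number. The length counts all annotated exons, so levels compared between genes depend on the annotation too.

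Polymerase alpha-primase, which lays down the RNA-DNA primer, was lower in cKO in 4 of 4 genes, with log2 fold changes from -0.49 to -0.18. Pola1, the catalytic subunit, was at 10.4 and 9.51 CPM in cKO replicates 1 and 2, against 8.77 and 19.3 CPM in WT replicates 1 and 4. Both cKO libraries were above WT replicate 1, and the fitted change turned from -0.49 with all libraries to 0.19 without WT replicate 4. Prim1, the small primase subunit, was at 36.1 and 36.7 CPM in cKO replicates 1 and 2, against 37.3 and 46.3 CPM in WT replicates 1 and 4, a narrow spread with cKO below WT. Pola2 and Prim2 had log2 fold changes of -0.36 and -0.18. Among the leading- and lagging-strand polymerases, Pole, the catalytic subunit of polymerase epsilon, was at 25.4 and 20.9 CPM in cKO replicates 1 and 2, against 24.3 and 37.5 CPM in WT replicates 1 and 4 (log2 fold change -0.41, SE 0.25). Pole2, its partner subunit, was at 3.97 and 2.57 CPM in cKO replicates 1 and 2, against 3.06 and 6.21 CPM in WT replicates 1 and 4, with 44 to 105 reads a library. The delta subunits Pold1 and Pold2 had log2 fold changes of -0.24 and -0.31. Without WT replicate 4 the values were -0.061, 0.10, 0.16 and -0.012 for Pole, Pole2, Pold1 and Pold2, so Pole2 and Pold1 turned to the higher side.

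Pcna, the sliding clamp that holds polymerases on DNA, was the most abundant of the 47 genes per length, at 66.7 CPM per kilobase of exon. It had 134 and 128 CPM in cKO replicates 1 and 2, against 136 and 242 CPM in WT replicates 1 and 4, means of 131 ± 3.77 CPM in cKO and 189 ± 75.3 CPM in WT (SD, n = 2 each) and a log2 fold change of -0.53 (SE 0.26, edgeR adjusted p = 0.956). Both cKO libraries were below WT replicate 1 by a small margin, and the value without WT replicate 4 was -0.048. A near copy, Pcna-ps2, had 8 to 17 reads a library. The clamp loader genes Rfc1 to Rfc5 were lower in cKO in 5 of 5 cases, between -0.53 for Rfc4 and -0.10 for Rfc2. Rfc4 was at 15.6 and 15.2 CPM in cKO replicates 1 and 2, against 16.4 and 28.02 CPM in WT replicates 1 and 4, and Rfc3 at 46.6 and 40.2 CPM in cKO replicates 1 and 2, against 42.5 and 56.7 CPM in WT replicates 1 and 4. The groups were apart in Rfc4 and overlapped in Rfc3, where cKO replicate 1 was above WT replicate 1. Rfc1, the large subunit, had a log2 fold change of -0.31 and Rfc5 one of -0.27, and both had cKO below WT in every library.

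RPA coats the single-stranded DNA behind the helicase, and its genes were lower in cKO in 3 of 3 cases. Rpa2 had the smallest unadjusted p of the 46 genes. It was at 29.2 and 27.1 CPM in cKO replicates 1 and 2, against 35.9 and 48.2 CPM in WT replicates 1 and 4, with means of 28.2 ± 1.46 CPM in cKO and 42.03 ± 8.69 CPM in WT (SD, n = 2 each). Its log2 fold change was -0.58 (SE 0.19, 95% interval -1.04 to -0.11, unadjusted p = 0.0223, edgeR adjusted p = 0.956). Both cKO libraries were below WT replicate 1 as well as replicate 4, and the value of -0.34 without WT replicate 4 was the lowest of the 46 genes in that fit. Rpa3 showed the same order of groups (-0.43, SE 0.21, and -0.19 without WT replicate 4), while Rpa1, the large subunit, had -0.32 and overlapping groups. Lig1, the ligase that seals Okazaki fragments, was at 76.3 and 69.4 CPM in cKO replicates 1 and 2, against 85.03 and 114 CPM in WT replicates 1 and 4. Its groups did not overlap (log2 fold change -0.45, SE 0.17, unadjusted p = 0.0398, edgeR adjusted p = 0.956), and the value was -0.22 without WT replicate 4. Fen1, the flap nuclease that trims the same fragments, had 5 and 8 reads in cKO replicates 1 and 2, against 2 and 10 reads in WT replicates 1 and 4. These reads were too few for the test. In GENCODE release M21, 78.8% of the exon bases of Fen1 are shared with Gm10143 on the opposite strand, and no source used here says if the counting was stranded. The part of this overlap in the low count was not tested.

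WT replicate 4 was also the highest library for the 3 genes of nucleotide supply. Rrm2, the cell cycle-regulated subunit of ribonucleotide reductase, was at 73.8 and 62.5 CPM in cKO replicates 1 and 2, against 66.98 and 146 CPM in WT replicates 1 and 4 (log2 fold change -0.65, SE 0.34). Its partner Rrm1 was at 78.9 and 66.9 CPM in cKO replicates 1 and 2, against 75.2 and 148 CPM in WT replicates 1 and 4 (log2 fold change -0.62, SE 0.31). For both, cKO replicate 1 was above WT replicate 1 and cKO replicate 2 was the lowest. The ratio of Rrm2 to Rrm1 in CPM was 0.935 and 0.935 in cKO replicates 1 and 2, against 0.8903 and 0.985 in WT replicates 1 and 4, a narrow spread. Tyms, which makes thymidylate, was at 29.3 and 28.99 CPM in cKO replicates 1 and 2, against 32.1 and 44.6 CPM in WT replicates 1 and 4, with cKO below WT in every library. Chaf1a and Chaf1b encode subunits of CAF-1, which places new histones behind the fork. Chaf1a was at 23.2 and 18.3 CPM in cKO replicates 1 and 2, against 21.1 and 36.3 CPM in WT replicates 1 and 4, and Chaf1b at 37.4 and 36.4 CPM in cKO replicates 1 and 2, against 36.3 and 43.8 CPM in WT replicates 1 and 4. The groups overlapped in both, and 52.5% of the exon bases of Chaf1a are shared with Ubxn6 on the opposite strand. Cyclin E, the partner of CDK2 at the entry to S phase, is encoded by Ccne1 and Ccne2. Ccne1 was at 7.997 and 6.01 CPM in cKO replicates 1 and 2, against 8.13 and 15.1 CPM in WT replicates 1 and 4 (log2 fold change -0.73, SE 0.36), with cKO below WT. Ccne2 was at 7.38 and 8.05 CPM in cKO replicates 1 and 2, against 7.85 and 13.00 CPM in WT replicates 1 and 4, with overlapping groups, and shares 17.4% of its exon bases with Ints8 on the opposite strand.

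**Figure D3:**
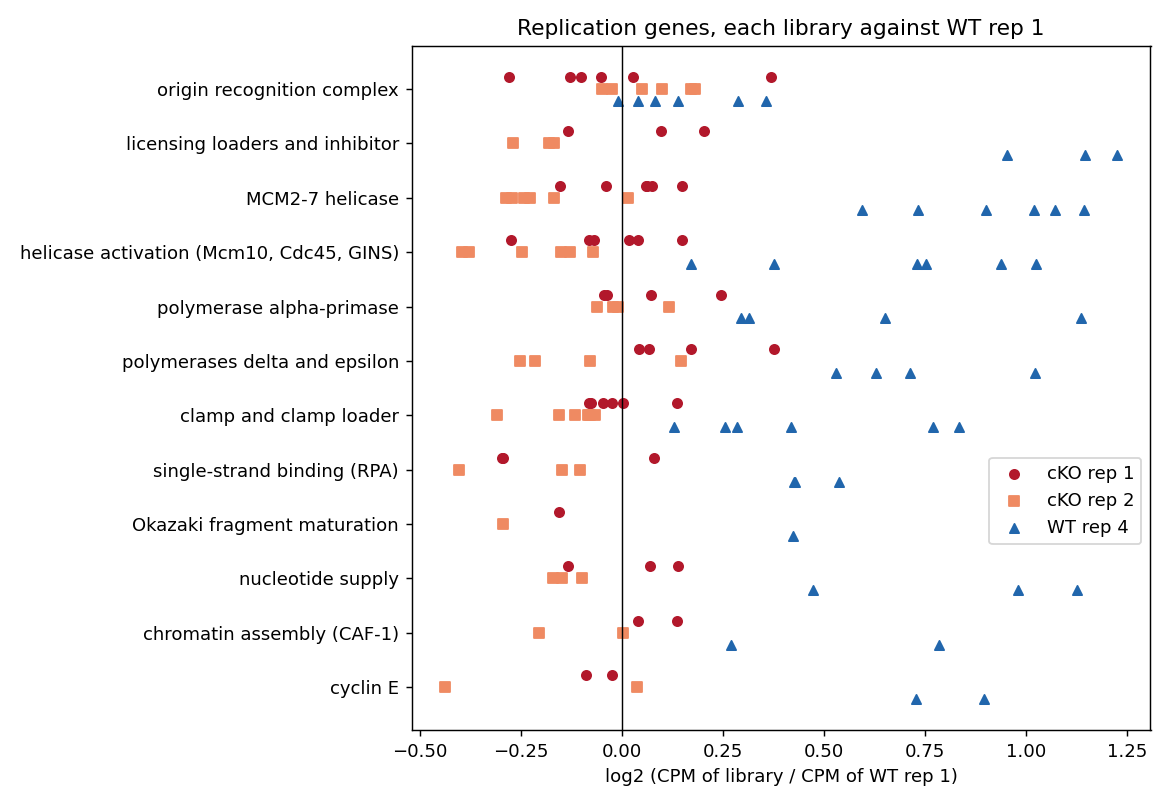
Each point is 1 gene: the log2 ratio of its CPM in a library to its CPM in WT replicate 1 (horizontal axis), with genes grouped by role down the page and libraries marked by colour and shape. Points of WT replicate 4 (blue triangles) reach 1.23, and lie between -0.0099 and 0.36 for the origin recognition complex. Points of cKO replicates 1 and 2 (red circles, orange squares) lie between -0.44 and 0.38.

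Other genes of the replication pathway, listed apart from the 47, had a summed level of 1830.1 and 1793 CPM in cKO replicates 1 and 2, against 1886 and 2702 CPM in WT replicates 1 and 4, again highest in WT replicate 4. cKO replicate 1 was below WT replicate 1 in 32 of these genes, against 22 of the 46. Of 44 such genes, all tested, 41 were lower in cKO with a median log2 fold change of -0.47, 0 passed 5% FDR, and WT replicate 4 was the highest library for 41. The median was -0.062 without WT replicate 4. By unadjusted p the first was Dscc1, a subunit of the alternative clamp loader for cohesion, at 3.24 and 2.57 CPM in cKO replicates 1 and 2, against 5.02 and 7.33 CPM in WT replicates 1 and 4 (log2 fold change -1.08, SE 0.34, and -0.78 without WT replicate 4). Slbp, which binds histone mRNA, followed at 33.8 and 32.02 CPM in cKO replicates 1 and 2, against 41.7 and 53.97 CPM in WT replicates 1 and 4. Mtbp and Ticrr, whose products act together in origin firing, had log2 fold changes of -0.66 and -0.89, and -0.52 and -0.40 without WT replicate 4. For these 4 genes edgeR's adjusted p was 0.956 each, and both cKO libraries were below both WT libraries. The 4 were named for their unadjusted p in this same fit, so that order of libraries adds no support. Over the list, both cKO libraries were below both WT libraries for 23 of the 44 genes, against 15.7% of all genes tested. Of 13 E2F and pocket protein genes, 13 were lower in cKO with a median of -0.37, and -0.056 without WT replicate 4. 0 of the 13 passed 5% FDR. The smallest unadjusted p were those of the activator E2f3 (log2 fold change -0.63, SE 0.26), the pocket protein gene Rbl1 (-0.80, SE 0.36) and the E2F partners Tfdp2 (-0.49) and Tfdp1 (-0.34).

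Lists of cell state and cell type markers differed between the libraries too. The summed level of 21 G2 and M phase genes was 877 and 731 CPM in cKO, against 877 and 1801 CPM in WT, that of 10 intermediate progenitor genes was 722 and 758 CPM in cKO, against 805 and 1174 CPM in WT, and that of 16 radial glia genes was 1927 and 1799 CPM in cKO, against 2228 and 2417 CPM in WT. WT replicate 4 was the highest library for 21 of the 21, 10 of the 10 and 10 of the 16 genes. Ganglionic eminence genes, markers of ventral progenitors and neurons beside the cortex, summed to 906 and 539 CPM in cKO, against 666 and 1199 CPM in WT, and WT replicate 4 was highest for 9 of 11. The 14 postmitotic neuron genes summed to 9124 and 10611 CPM in cKO, against 9109 and 7602 CPM in WT, lowest in WT replicate 4. Erythroid genes, which could bring in RNA of dividing blood precursors, summed to 957 and 763 CPM in cKO, against 973 and 726 CPM in WT, also lowest in WT replicate 4, although that library was the highest for 4 of the 9 erythroid genes tested and their log2 fold changes ran from -6.16 to 0.30. The lowest was that of Hbb-y, an embryonic globin gene, at 0.503 and 0.525 CPM in cKO replicates 1 and 2, against 2.02 and 72.4 CPM in WT replicates 1 and 4 (edgeR adjusted p = 0.956).

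Markers of tissue beside the cortex differed between libraries as well. Thalamus and hypothalamus genes summed to 257 and 263 CPM in cKO, against 273 and 434 CPM in WT, with WT replicate 4 the highest for 7 of the 7 tested and a median log2 fold change of -1.43, which was -0.95 without that library. Most of that sum was Lhx2, which cortical progenitors also express, at 228 and 249.8 CPM in cKO replicates 1 and 2, against 238 and 365 CPM in WT replicates 1 and 4. Choroid plexus genes summed to 516 and 61.1 CPM in cKO, against 44.02 and 18.1 CPM in WT, far the highest in cKO replicate 1 and lowest in WT replicate 4. Meninges genes summed to 45.7 and 73.1 CPM in cKO, against 93.98 and 31.2 CPM in WT, highest in WT replicate 1 and lowest in WT replicate 4. Endothelium genes summed to 243 and 225 CPM in cKO, against 235 and 233 CPM in WT, a narrow range, and microglia genes to 69.96 and 50.5 CPM in cKO, against 52.3 and 56.6 CPM in WT. The part of the cell state and cell type lists in the level of the replication genes was not tested.

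Divided by other sums, the replication genes looked as follows. The ratio to G2 and M phase genes was 2.07 and 2.303 in cKO replicates 1 and 2, against 2.07 and 1.56 in WT replicates 1 and 4, lowest in WT replicate 4. The ratio to intermediate progenitor genes was 2.52 and 2.22 in cKO replicates 1 and 2, against 2.25 and 2.39 in WT replicates 1 and 4, a narrow range in which the groups overlapped. The ratio to radial glia genes was 0.945 and 0.936 in cKO replicates 1 and 2, against 0.814 and 1.16 in WT replicates 1 and 4, with cKO between the WT libraries. The ratio to postmitotic neuron genes was 0.1995 and 0.159 in cKO replicates 1 and 2, against 0.199 and 0.369 in WT replicates 1 and 4.

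**Figure D4:**
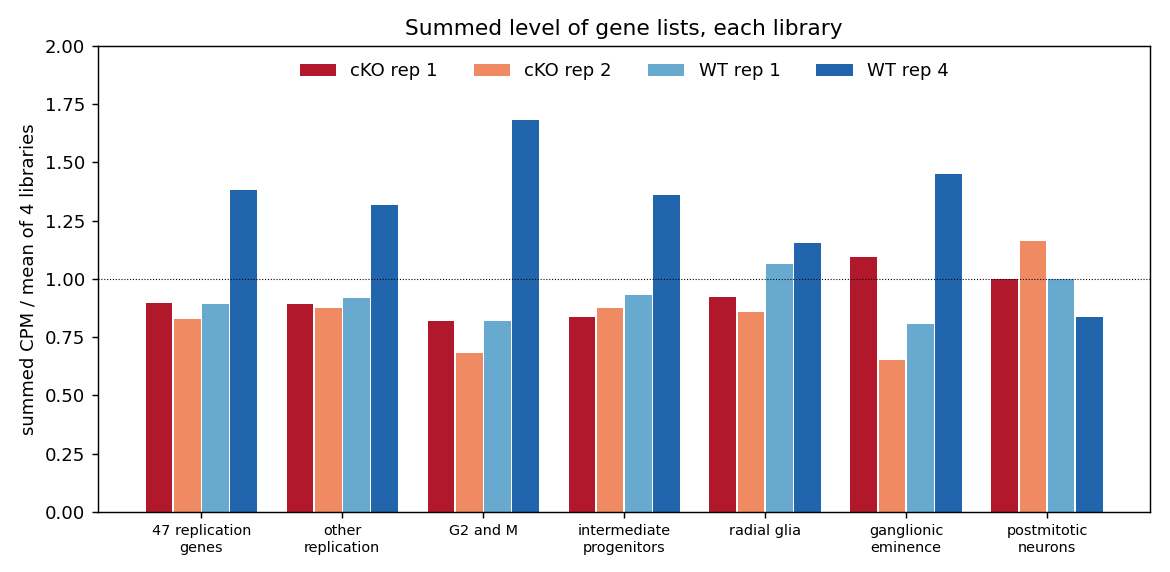
Bars give the summed CPM of a gene list in each library divided by the mean over the 4 libraries (dotted line at 1), cKO replicates in red tones and WT replicates in blue. WT replicate 4 is the highest bar for the replication, G2 and M phase, progenitor and ganglionic eminence lists and the lowest for postmitotic neurons.

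The authors' own comparisons, each of 1 library against 1, put the same contrast in numbers. In the authors' deposited table of cKO replicate 1 over WT replicate 4, 43 of the 47 genes were lower at an adjusted p below 0.05, against 25.2% of all genes listed, and the exceptions were Orc1, Orc3, Orc5 and Fen1. By the significance mark of the authors' deposited table, 7 were marked, against 8.72% of all genes in either direction. They were Cdc6, Gmnn, Mcm2, Mcm3, Mcm4, Mcm10 and Rrm2, with log2 fold changes from -1.31 to -1.02. At the authors' p below 0.05 and a log2 fold change below -1, 7 of the 47 were lower, against 4.64% of all genes. In the authors' deposited table of cKO replicate 2 over WT replicate 1, 12 of 47 were lower at an adjusted p below 0.05, against 8.26% of all genes, 0 were higher, against 5.04%, and 0 carried the mark, against 1.62%. These 12 were Mcm2 to Mcm6, Cdc45, Pcna, Rfc1, Rpa1, Rpa2, Lig1 and Rrm1, and in the authors' deposited table the log2 fold change was -0.31 for Mcm6, -0.33 for Lig1 and -0.44 for Rpa2. The median over the 47 genes was -0.68 in the first of the authors' deposited tables and -0.16 in the other. In the first, 45 of the 47 were below 0, against 53.5% of all genes. In the other, 39 of the 47 were below 0, against 59.1% of all genes. These p-values compare libraries, not genotypes.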

How the data were processed

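The authors deposited 2 tables, each with raw read counts of 1 cKO and 1 WT library. Per the submitters' processing notes, the tools named are HTSeq 0.6.0, TopHat2 2.0.12 and Bowtie2 2.2.3, with mm9 as the build, although gene positions in the tables matched GRCm38 (92.2% of 22574 genes had the start and end of GENCODE release M21). Coordinates are those of the tables. The authors' normalised values equal CPM with 0.5 reads in place of 0. The deposited fold change ratio, its log2, p-value and adjusted p-value are each for 1 library against 1, per the file headers.

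Counts of the 19844 genes in both tables were tested with edgeR 4.0.16 in R 4.3.3 by its two-sided quasi-likelihood test, with TMM factors, filterByExpr (minimum count 10) and Benjamini-Hochberg adjustment to 5% FDR. This left 16269 genes and 2 residual degrees of freedom, at a biological variation coefficient of 0.194. The fit was also run on simulated counts, with the same variation coefficient (0.194) for every gene and no library set apart. Since WT replicate 4 stood apart here, that run does not show how the fit behaves on these libraries. CPM in the text carry TMM factors, and CPM per kilobase used the union of GENCODE exons, which need not be the length of the transcript expressed. Tables were joined in Python 3.11.15. Alternatives were DESeq2 1.42.0, other size factors and filters, the deposited table as a block, genes of 1 table added, the series' thresholds and each library left out. Libraries were distinct (chi-square per gene between pairs from 6.47 to 41.9). WT replicate 1 was closer to cKO replicates 1 and 2 (8.87 and 6.47) than to WT replicate 4 (34.2), and the cKO libraries differed by 12.4. Genes with few reads, such as Orc1 and Pole2, had wide intervals (SE 0.35 and 0.45). Some genes with more reads did too, such as Mcm4 (SE 0.37). The 47 genes, the other lists and the rule for naming genes (all by role, per-library values for most, the extremes by fold change and p) were chosen with earlier results of these data known. The tables held 1 emptied line each, which is not reported here.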

Additional observations from a re-analysis of the deposited data

How the results depend on the processing

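All 46 tested replication genes kept their direction, none past 5% FDR, with DESeq2, RLE or upper-quartile factors, library totals, either other filter (none, or a mean CPM from 1 up), genes of 1 table added, and the deposited table as a block (median log2 fold change -0.41 with the block, which pairs cKO replicate 1 with WT replicate 4 and cKO replicate 2 with WT replicate 1). No paired analysis was possible by replicate number because the groups share only number 1. Leaving out 1 library in turn gave 0 to 1849 genes past 5% FDR over all genes, 0 to 27 replication genes and medians from -0.65 to -0.043, with the most calls and the lowest median without WT replicate 1 and the highest median without WT replicate 4. The series' thresholds ask for a log2 fold change beyond 1 in either direction, with p under 0.05 before adjustment. In the edgeR fit of all libraries, 88 of all 16269 genes (0.541%) and 0 of the 46 replication genes passed them. With so low a share over all genes, 0 of 46 does not set the replication genes apart. Log2 fold changes over the fits that left out 1 library included both signs for 11 genes: -0.10 to 0.22 for Orc1, -0.31 to 0.053 for Orc2, -0.35 to 0.029 for Orc4, -0.51 to 0.089 for Mcm7, -0.95 to 0.19 for Pola1, -0.64 to 0.012 for Pola2, -0.55 to 0.16 for Pold1, -0.92 to 0.10 for Pole2, -0.38 to 0.038 for Rfc3, -1.10 to 0.030 for Rrm2 and -0.25 to 0.027 for Chaf1b. WT replicate 4 supplied the change of sign in 9 of these, cKO replicate 1 in Orc1 and Orc4, and WT replicate 1 in Orc1. The cause was not tested. With 2 libraries a group, 0 of all 16269 genes passed 5% FDR with all libraries (smallest edgeR adjusted p 0.956). The power of this fit was not measured on these libraries, so a gene left uncalled is not shown to be unchanged. Standard errors of the 46 genes ran from 0.12 to 0.45. Changes above that size also went uncalled, such as the log2 fold change of -0.83 for Cdc6.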

Other observations

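Promoter letters differed between phases of the cycle. Among 18 G2 and M phase genes with a promoter window, TTTGAA stood in 72.2% and CCAAT in 88.9%, and the E2F-type letters in 5.56%. Among the 38 replication genes with a window the shares were 13.2%, 63.2% and 36.8%. Other replication genes, 34 with a window, had 20.6%, 47.1% and 32.4%. These lists were chosen by name with their roles known.

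The share of a subunit in the summed level per length of its group varied little between libraries for some genes and more for others. Rrm1 held 18.2% to 18.8% of the summed level per length of the nucleotide supply genes in the 4 libraries, and Orc6 43.9% to 45.6% of that of the origin recognition complex. Pcna held 51.4% and 52.4% of the clamp and clamp loader level in cKO replicates 1 and 2, against 51.8% and 59.6% in WT replicates 1 and 4, the last above the rest. Of the helicase activation level, Cdc45 held 11.7% and 8.48% in cKO replicates 1 and 2, against 9.89% and 14.1% in WT replicates 1 and 4. Gins4, in the same group, held 46.5% and 49.03% in cKO replicates 1 and 2, against 45.7% and 38.1% in WT replicates 1 and 4. Of the CAF-1 level, Chaf1a held 24.7% and 20.96% in cKO replicates 1 and 2, against 23.4% and 30.5% in WT replicates 1 and 4. In WT replicate 4 the share was thus the highest for Cdc45 and Chaf1a and the lowest for Gins4.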
